A study of Rattus norvegicus with 16 samples.

Results

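The rat hairpins of *mir-124* and *mir-9* were examined in small RNA libraries of 6 organs. Every hairpin with these names in the deposited read positions was taken, which gave 3 *mir-124* hairpins (rno-*mir-124-1*, -*2* and -*3*) and 3 *mir-9* hairpins (rno-*mir-9-1*, -*2* and -*3*), 6 of 392 hairpins in all. Whole brain, heart, kidney, liver, spleen and testis were taken from 1 adult male rat of the inbred strain BN-Lx, a brown Norway line with the polydactyly-luxate syndrome, and from 1 adult male of the strain SHR, the spontaneous hypertensive rat. These 12 libraries are called the six-tissue set. A further 4 livers, 2 of each strain, bring the liver to 3 libraries per strain and the series to 16 libraries. The labels give no treatment other than freezing of the organs. With 1 rat per strain, a strain difference outside liver cannot be told apart from a difference between rats or between libraries.

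A miRNA hairpin is cut by Dicer into a 5p and a 3p arm, either of which can be loaded into an Argonaute protein, and bases 2 to 8 of the loaded arm, its seed, pair with target mRNAs. *mir-124* is the textbook miRNA of differentiated neurons, where its 3p arm lowers mRNAs of non-neuronal cells, and its 5p arm is usually the minor product. *mir-9* is a miRNA of neural progenitors and neurons. It is known for using both arms, whose seeds differ, and its 5p arm is known to target the neuronal repressor REST.

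The sequences of *mir-9* are shown because its 3p arm began 1 base away from the annotated first base and because its 3 hairpins differ just after that arm. They are taken from RefSeq on the build GRCr8, where *Mir9-1* lies at chr2:175974971-175975059, *Mir9-2* at chr2:15933292-15933378 and *Mir9-3* at chr1:142849400-142849489, all on the plus strand. By name, *Mir9-2* and *Mir9-3* overlap their annotated host genes *Mir9-2hg* and *Mir9-3hg*. Written 5′ to 3′ with the seed in capitals, the annotated mature arms, which are the same in the 3 hairpins, are
rno-miR-9a-5p: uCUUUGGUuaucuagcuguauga
rno-miR-9a-3p: aUAAAGCUagauaaccgaaagu
rno-miR-9a-3p from the start most reads had: uAAAGCUAgauaaccgaaagu
Counted from that start, the 3 hairpins are alike over the 3p arm and differ at base 23, which is in capitals in the following lines.
rno-mir-9-1: uaaagcuagauaaccgaaaguaAaaa
rno-mir-9-2: uaaagcuagauaaccgaaaguaAaaa
rno-mir-9-3: uaaagcuagauaaccgaaaguaGaaa

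A library held between 403453 and 1064894 reads on hairpins in brain, liver, spleen, heart and kidney of the six-tissue set, 26880 and 29131 in testis, and between 1167607 and 3229461 in the further livers. Testis was amplified with 16 PCR cycles, SHR liver of the six-tissue set with 17 and the other libraries of that set with 14. Intervals of reads and shares are exact at 95% and cover counting error only, since copies made by PCR were not marked. Where 0 reads were found, up to 3 reads are allowed for. Summed marker lists were highest per library in the labelled organ for heart, liver, spleen and testis, while the kidney list was higher in the livers of the six-tissue set than in kidney. In either brain *mir-29a-3p* led, with 11.1% and 12.8% of the reads. The brains differed in miRNAs of epithelia and sensory cells (*mir-200*, *mir-141*, *mir-429*, *mir-182*, *mir-183* and *mir-96*, a list made after their values were seen), whose 14 arms held 3324 reads in BN-Lx brain, or 0.312% of the library, and 81 in SHR brain, or 0.00941%.

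All 4 arms were brain miRNAs in these libraries. The brain library of BN-Lx held 23800 reads of *mir-124-3p* and that of SHR 55270, or 2.23% and 6.42% of the library, which made it the 10th and the 3rd most abundant arm of 519 and 484 detected. *mir-124-5p* had 3657 and 2346 reads. *mir-9-3p* had 4576 and 2669 reads and *mir-9-5p* 3525 and 1372. In reads, *mir-124-3p* was thus 20.7 times *mir-9-3p*, the next of the 4 arms, in SHR brain and 5.20 times in BN-Lx brain, while *mir-124-5p* and the *mir-9* arms lay within a factor of 2 of each other in both brains. Brain held 99.4% of all reads of *mir-124-3p* over the 16 libraries, 99.2% of those of *mir-124-5p*, 98.9% of those of *mir-9-3p* and 97.9% of those of *mir-9-5p*.

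**Figure D1:**
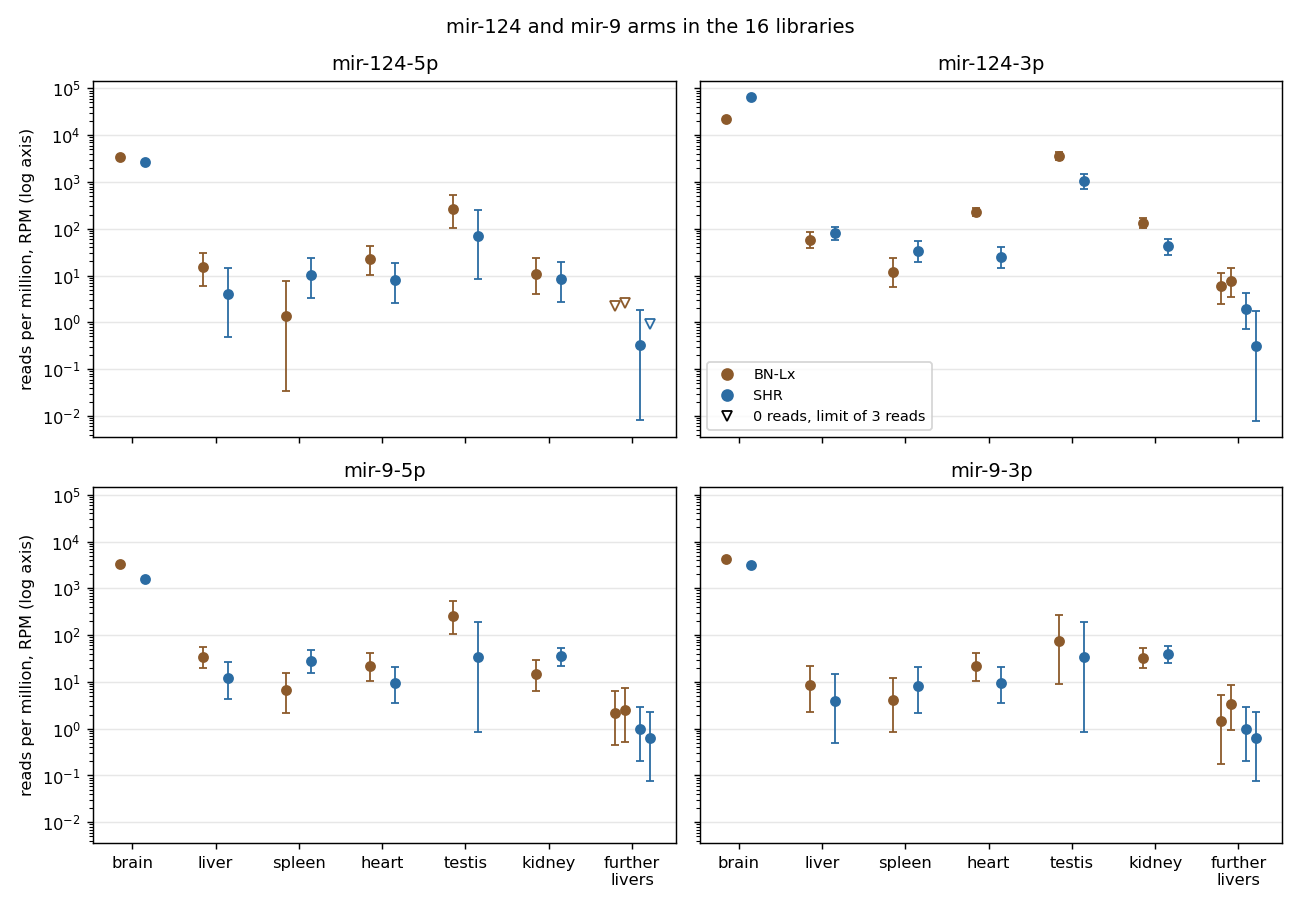
Reads per 1000000 reads of the library (RPM, log axis) of the 4 arms in each of the 16 libraries, by tissue and strain, with exact 95% counting intervals as bars and open triangles where 0 reads leave a limit of 3 reads. The brain points lie above all others in every panel, the testis points come next for both *mir-124* arms, and the further livers lie below the other livers.

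Outside brain, the reads were few. In BN-Lx, *mir-124-3p* had 93 reads in heart, 73 in kidney, 27 in liver, 9 in spleen and 96 in testis, and in SHR 16, 25, 40, 17 and 30. Testis had the smallest libraries, so its reads stand for 3571 and 1030 reads per 1000000 reads of the library (RPM), against 12.2 to 230.5 in the other 8 libraries outside brain in the six-tissue set. The order of the tissues by *mir-124-3p* was therefore brain, testis and then the rest, among which the ranges of heart, kidney and liver overlapped and that of spleen overlapped with heart. *mir-124-5p* had between 1 and 9 reads in each of the 10 libraries outside brain, *mir-9-3p* between 1 and 24 and *mir-9-5p* between 1 and 21. Outside brain, kidney had the most reads of *mir-9-3p*, 18 from the BN-Lx rat and 24 from the SHR rat, or 33.1 and 40.1 RPM, but per library BN-Lx testis was higher, with 74.4 RPM from 2 reads. In whole organs, fewer cells with a miRNA and less of it per cell cannot be told apart.

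To set the brain against the other organs with the strains as replicates, the 12 libraries were fitted with edgeR (quasi-likelihood test, Benjamini-Hochberg adjusted over 415 arms, a term for strain). Against the mean of the other 5 tissues, 4 of 4 arms were higher in brain, beside 41% of all 415 arms that were called higher and 19.8% that were called lower. The log2 fold change was 8.24 for *mir-124-3p* (SE 0.66, adjusted p 3.2e-06), 7.43 for *mir-9-3p* (SE 0.35, adjusted p 1.3e-07), 7.22 for *mir-124-5p* (SE 0.46, adjusted p 5.6e-07) and 5.95 for *mir-9-5p* (SE 0.50, adjusted p 4.9e-06). The median over all arms was 0.65. Each arm was higher in 2 of 2 brains than in any of the 10 other libraries, but the share of all arms of which this holds was not computed. For *mir-124-3p* the size of the difference depended on the brain used, with 6.53 when SHR brain was left out and 9.31 when BN-Lx brain was left out.

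The arms were also compared with each tissue on its own. All 4 passed the test against liver, spleen, heart, testis and kidney, where 36.6%, 31.8%, 33.5%, 27.5% and 35.2% of all arms were called higher in brain and 22.2%, 21.9%, 18.8%, 16.4% and 22.4% lower. For *mir-124-3p* the log2 difference was largest against spleen, at 10.37 (SE 1.41), and smallest against testis, at 5.19 (SE 1.14, adjusted p 0.0048). With any 1 library left out the latter ran from 3.52, without SHR brain, to 6.30, without BN-Lx brain, and its adjusted p reached 0.048 without SHR testis. Testis was also the nearest tissue for *mir-124-5p*, at 4.96 (SE 0.84), and for *mir-9-5p*, at 4.72 (SE 0.96). For *mir-9-3p* the nearest was kidney, at 6.41 (SE 0.63), ahead of testis at 6.70 (SE 0.72), a gap smaller than either standard error. The 95% intervals of the 4 arms overlapped in each of these 5 comparisons.

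**Figure D2:**
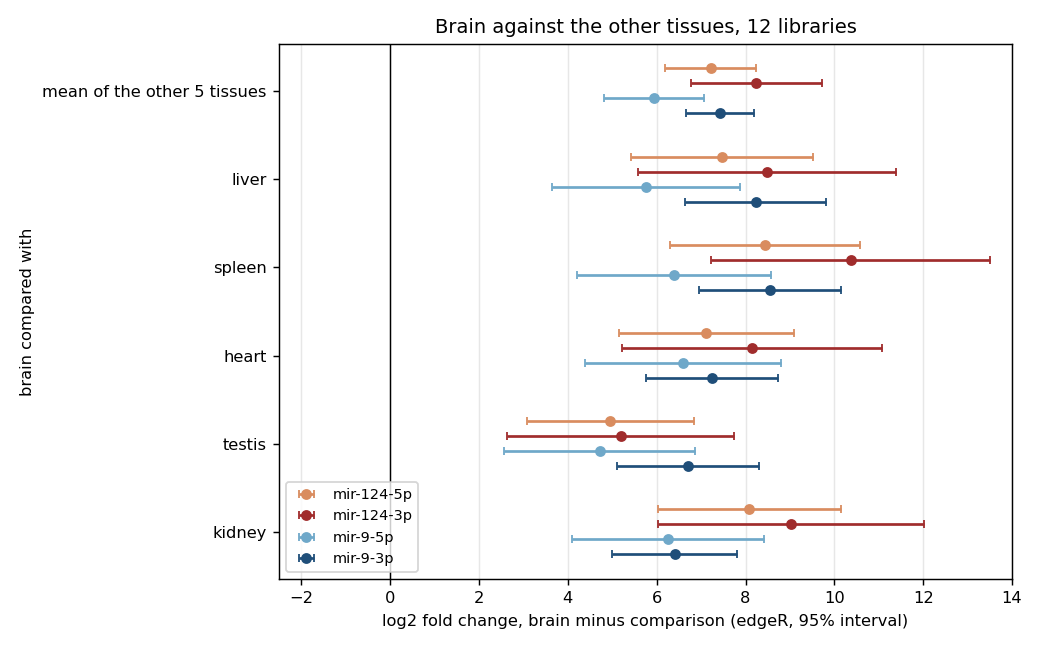
Log2 fold change of brain over the mean of the other 5 tissues and over each tissue (horizontal axis), with 95% intervals from the edgeR fit of 12 libraries, for the 4 arms in 4 colours. All intervals lie above 0, and the points against testis lie furthest to the left for *mir-124-5p*, *mir-124-3p* and *mir-9-5p*.

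The study called an arm specific to a tissue when its normalized reads were at least 5 times those of every other tissue in each strain, the reads being divided by the outlier-corrected mean (ocm), the mean over known arms without the 3 with most reads. All 4 arms met this rule for brain, as did 18.2% of the 639 arms with a read in the six-tissue set. The narrowest margin was that of *mir-124-3p* in BN-Lx, whose brain had 5.47 times the normalized reads of testis, while in SHR the same ratio was 57.1. For *mir-124-5p* the ratios of brain to testis were 11.5 in BN-Lx and 36.4 in SHR, the latter with 2 reads in testis. For *mir-9-3p* brain was at least 50.5 times the next tissue in either strain. At a 10-fold limit *mir-124-3p* alone of the 4 would miss the rule.

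The traces outside brain were set beside those of other brain miRNAs, 27 arms that met the 5-fold rule with at least 1000 reads in each brain, a list made after the values were seen and to which the 4 arms belong. The rule itself limits these traces, since it leaves out arms with more reads elsewhere. Shares here are of raw reads, without correction for depth, so they can be compared between arms of an organ but not between organs. BN-Lx testis held 26880 reads in all and BN-Lx brain 1064894. Over the 27 arms the reads in BN-Lx testis had a median of 0.0976% of those in BN-Lx brain, and *mir-124-3p* had 0.403%. Of 17 other arms with as many reads in brain, which edgeR called higher there but which missed the rule, 13 had a larger share in BN-Lx testis than *mir-124-3p*, among them *mir-129-3p* with 0.621%. In BN-Lx heart its share was 0.391%, with a median of 0.258%. In the SHR rat it lay below the median in every organ, with 0.0543% in testis (median 0.137%) and 0.0289% in heart (median 0.437%). The share of *mir-124-3p* was thus above the median of this list in heart and testis of the BN-Lx rat and below it in the same organs of the SHR rat. Its share is taken of 23800 brain reads in BN-Lx and of 55270 in SHR, which lowers it in SHR.

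In liver the arms differed more between the sets of libraries than between the strains. *mir-124-3p* had 27 and 40 reads in the livers of the six-tissue set, or 57.7 and 79.8 RPM, and 8, 9, 6 and 1 reads in the further livers, or 0.31 to 7.71 RPM in deeper libraries. For *mir-9-5p* the range was 11.97 to 34.2 RPM in the first set and 0.62 to 2.57 in the second. For *mir-9-3p* it was 3.99 to 8.55 and 0.62 to 3.43. *mir-124-5p* had 7 and 2 reads in the first set, and in the second 1 read in SHR liver 2 and 0 in the other 3 livers, which allows for up to 2.57 RPM. The RPM values of the 4 arms did not overlap between the sets, but the share of all arms that separate in this way was not computed. The counting intervals did overlap for *mir-9-3p*, with 0.48 to 14.4 RPM in SHR liver 1 and 0.93 to 8.77 in BN-Lx liver 3. In the same livers they also overlapped for *mir-9-5p* (4.39 to 26.1 and 0.53 to 7.51) and *mir-124-5p* (0.48 to 14.4 and 0 to 3.16). Those of *mir-124-3p* stayed apart, from 38.0 RPM up in the first set and up to 14.6 in the second. Summed over the 4 arms, the livers of the six-tissue set had 20.2 times (14.2 to 29.1) the RPM of the further livers. Over the 16 arms of the list of other neuronal miRNAs described later this ratio was 2.43, and over the 4 arms of *mir-219* and *mir-338*, miRNAs of oligodendrocytes, it was 0.97. The sets also differ in depth, whose part in this difference was not tested.

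*mir-124* and *mir-9* differed in how their reads were divided between the arms. In brain, 43.5% (42.4 to 44.6) of *mir-9* reads were 5p in BN-Lx and 34.0% (32.5 to 35.4) in SHR, so that both arms were abundant with 3p ahead. Of *mir-124* reads, 13.3% (12.9 to 13.7) were 5p in BN-Lx and 4.07% (3.91 to 4.24) in SHR. The share of the minor arm had a median of 3.98% over the 174 miRNAs with at least 100 reads in BN-Lx brain and of 3.67% over 161 in SHR brain. The minor arm of *mir-9* was above that of 94.8% and 87.0% of them, that of *mir-124* above 73.6% and 53.4%.

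Outside brain the arms could be compared only after pooling, because single libraries held too few reads. Over the 10 other libraries of the six-tissue set, 56.0% of 166 *mir-9* reads were 5p (48.1 to 63.7) and 10.3% of 475 *mir-124* reads (7.73 to 13.4). Over all lengths the interval for *mir-9* lies above the shares in both brains, and that for *mir-124* lies above the share in SHR brain and includes that in BN-Lx brain. In BN-Lx liver of this set, 3 of 16 *mir-9-5p* reads began 4 bases past the annotated start, and in BN-Lx heart 3 of 9 began 5 past it. In BN-Lx brain 4 and 1 of 3525 reads did so, while in BN-Lx testis all 7 began at the annotated start. Such shifted reads lack part of the seed, and their part in the 5p share was not tested. Among reads of at least 20 nt, 51.4% of 138 *mir-9* reads outside brain were 5p (42.8 to 60.0), an interval that includes the 43.8% of BN-Lx brain at this length and lies above the 33.4% of SHR brain. The further livers held 11 reads of 5p among 22 of *mir-9* (28.2% to 71.8%). The intervals treat the pooled reads as a single sample and leave out the spread between libraries.

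The first base of a read decides which seed it carries. *mir-124-5p* began at the same base in 99.8% and 99.7% of its reads in BN-Lx and SHR brain, *mir-124-3p* in 93.8% and 95.4%, and *mir-9-5p* in 89.9% and 91.0%, where the start used most was the annotated base. *mir-9-3p* was the least uniform. Of its reads, 77.2% (76.0 to 78.4) in BN-Lx and 72.8% (71.1 to 74.5) in SHR brain began 1 base downstream of the annotated start and carry the seed AAAGCUA, whereas 18.0% (16.9 to 19.1) and 22.9% (21.3 to 24.6) began at the annotated start with the seed UAAAGCU. Outside brain only SHR kidney held 20 reads or more of this arm, and 22 of its 24 reads began at the downstream base. Pooled, 60 of 73 reads from the 10 libraries outside brain in the six-tissue set began there, or 82.2% (71.5 to 90.2), with 3 of 6 in the 2 livers. The further livers went the other way, with 10 of their 11 reads at the annotated start (58.7% to 99.8%).

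For scale, the start used most held a median of 97.6% of the reads over 258 hairpin arms with at least 100 reads in BN-Lx brain and of 97.8% over 236 in SHR brain. On *mir-9-1*, where reads are those that the authors assigned to this hairpin, *mir-9-3p* had 80.6% and 76.6%, and 30 and 25 of these hairpin arms had a lower share. The distance between the starts used most on the 5p and 3p arms was the annotated one for 28 of 35 hairpins with at least 100 reads on both arms in BN-Lx brain and for 25 of 32 in SHR brain. The 3 *mir-9* hairpins, which share most reads, were among the 7 hairpins with a distance off by 1 base in either brain.

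**Figure D3:**
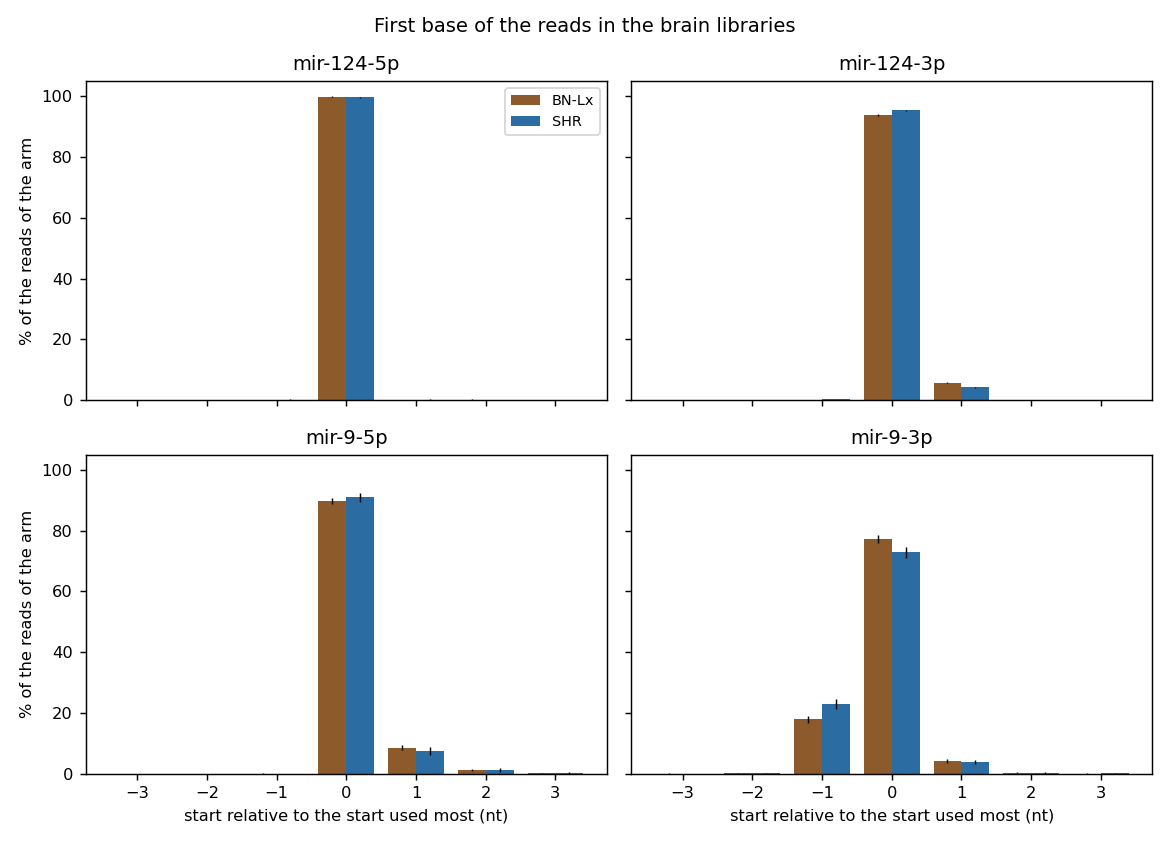
Share of the reads of each arm (vertical axis, %) by the first base relative to the start used most (horizontal axis, nt) in the 2 brain libraries, with exact 95% counting intervals. *mir-9-3p* has 18.0% and 22.9% of its reads at position -1, the annotated start, where the other arms have almost none.

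Paralogous hairpins give the same mature miRNA, so most reads cannot be assigned to a hairpin. The 3 *mir-124* hairpins each had 7933 of the 23800 *mir-124-3p* reads of BN-Lx brain, which is the even division of shared reads that the authors made. Of the *mir-9-3p* reads, 46.9% in BN-Lx and 45.3% in SHR brain reached base 23, where *mir-9-3* differs from *mir-9-1* and *mir-9-2* in the sequences given earlier. Of those reads, 2086 lay on *mir-9-1* or *mir-9-2* and 60 on *mir-9-3* in BN-Lx brain, and 1165 and 43 in SHR brain. The share of *mir-9-1* or *mir-9-2* was thus 97.2% (96.4 to 97.9) and 96.4% (95.2 to 97.4), with overlapping intervals. Reads that stop before base 23 do not bear on it, and *mir-9-1* and *mir-9-2*, alike over this stretch, cannot be told apart.

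The strains were compared in brain by the ratio of normalized reads, without a test, since each strain has 1 brain library. *mir-124-3p* was 2.92 times as high in SHR as in BN-Lx brain (2.88 to 2.97), the opposite of *mir-124-5p* from the same hairpins, whose ratio was 0.81 (0.77 to 0.85). *mir-9-3p* had a ratio of 0.73 (0.70 to 0.77) and *mir-9-5p* of 0.49 (0.46 to 0.52). Of 411 arms with at least 10 reads in the 2 brains, 4.87% were at least 2-fold higher in SHR and 15.1% at least 2-fold lower, and the median ratio was 0.86. Of the 4 arms, *mir-124-3p* was past 2-fold in the first direction and *mir-9-5p* in the second, by a small margin.

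The median ratio shifts with the scaling, by 0.14 on the log2 scale with edgeR's TMM factors, under which 29 arms were 2-fold higher and 54 lower instead of 20 and 62. Relative to the median arm, which no scaling alters, *mir-124-3p* stood at 3.41, *mir-124-5p* at 0.94, *mir-9-3p* at 0.86 and *mir-9-5p* at 0.57. With TMM or RLE factors the ratio of *mir-9-5p* was 0.54 or 0.55 and no longer past 2-fold. Among the 80 arms with at least 1000 reads in each brain, *mir-328-3p* alone had a higher ratio than *mir-124-3p*, at 3.70, and *mir-9-5p* had the lowest ratio of all. Over all 411 arms, 10 had a higher ratio than *mir-124-3p*. The lower arms included all 10 of the 14 epithelial and sensory arms with at least 10 reads in the brains, whose summed reads had a ratio of 0.031 (0.024 to 0.038). Their part in the ratios of the 4 arms was not tested.

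**Figure D4:**
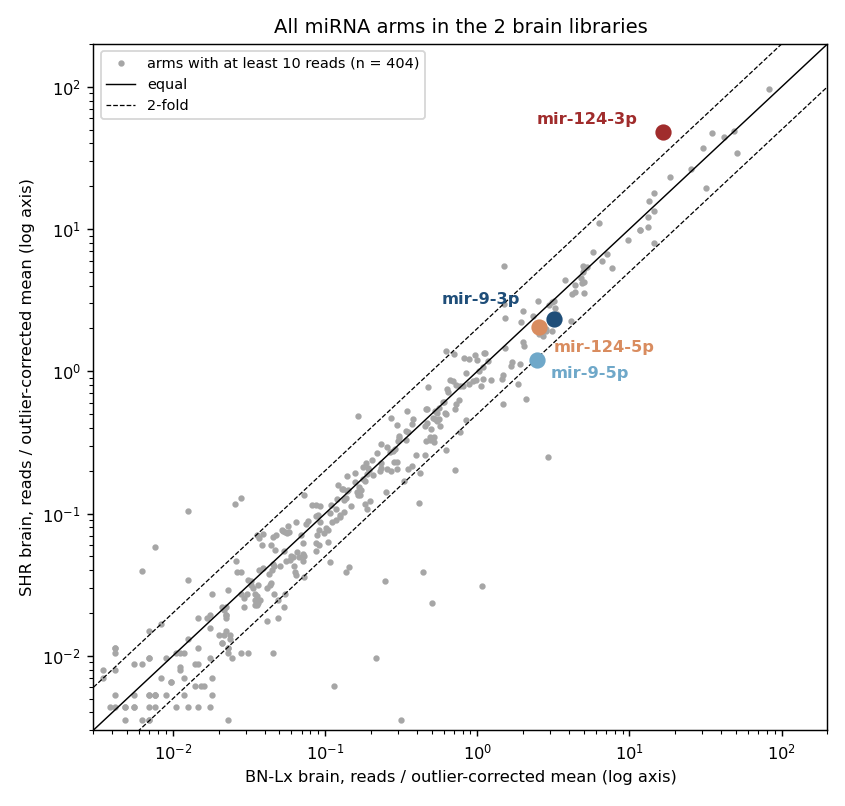
Reads divided by the outlier-corrected mean in BN-Lx brain (horizontal) and SHR brain (vertical), both on log axes, for the arms with at least 10 reads in the 2 brains and some in each, with lines at equality and at 2-fold. *mir-124-3p* lies above the upper 2-fold line at 16.6 and 48.4, *mir-9-5p* at the lower line, and *mir-124-5p* and *mir-9-3p* between the lines.

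The reads of *mir-124-3p* also differed in length between the 2 brains. Reads of up to 20 nt made up 55.3% (54.7 to 56.0) in BN-Lx and 26.2% (25.9 to 26.6) in SHR brain, a limit chosen after the lengths were seen. Among 207 arms with at least 100 reads in each brain, these shares had medians of 9.84% and 10.1%. Only *mir-328-3p*, named after its value was seen, had a larger excess in BN-Lx brain, with 50.4% and 14.4%. Excesses in SHR brain were not counted. The other 3 arms differed less than *mir-124-3p*, with 5.61% and 5.50% for *mir-124-5p*, 8.79% and 13.3% for *mir-9-5p* and 17.2% and 20.2% for *mir-9-3p*. In the 7 other libraries with at least 20 reads of *mir-124-3p*, reads of up to 20 nt made up 20.4% to 40.0%, all below the share in BN-Lx brain. The highest, in SHR testis, rests on 30 reads, with an interval of 22.7 to 59.4 that includes the share in BN-Lx brain. Among libraries with fewer reads, 4 of 9 reads in BN-Lx spleen had 21 nt and the others were shorter, while all 9 in BN-Lx liver 3 had 21 nt.

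The ratio between the strains therefore depended on the length counted. For *mir-124-3p* it was 1.39 (1.35 to 1.42) among reads of up to 20 nt and 4.83 (4.73 to 4.93) among reads of 21 nt or more, and it reached 15.5 (13.7 to 17.5) at 22 nt, from 292 reads in BN-Lx and 3591 in SHR brain. For *mir-124-5p* the ratios were 0.79 and 0.81, with overlapping intervals. For *mir-9-3p* they were 0.86 and 0.71, and for *mir-9-5p* 0.74 and 0.47. In either class of length, *mir-124-3p* was higher in SHR and the other 3 arms were lower.

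**Figure D5:**
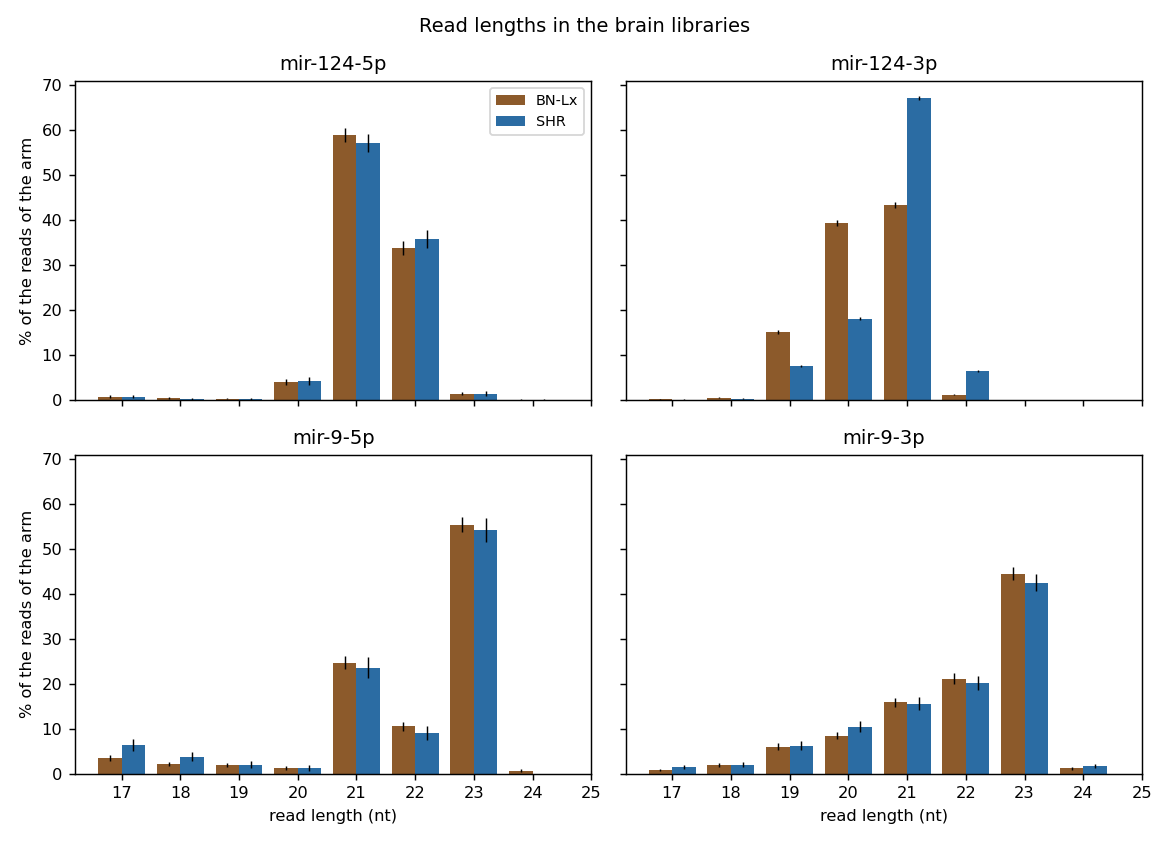
Share of the reads of each arm (vertical axis, %) by read length (horizontal axis, nt) in the brain libraries of BN-Lx and SHR, with exact 95% counting intervals. *mir-124-3p* has 39.4% of its reads at 20 nt and 43.4% at 21 nt in BN-Lx, against 18.2% and 67.2% in SHR, while the profiles of the other arms differ less.

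To ask whether the strains differed over all organs, the 12 libraries were fitted with strain and a block for tissue. None of the 4 arms passed, in a fit that called 0% of 415 arms, with 9 arms at an unadjusted p under 0.05 and 0 called by DESeq2. The log2 fold change of SHR over BN-Lx was -0.53 (SE 0.64) for *mir-124-3p*, -0.59 (SE 0.49) for *mir-124-5p*, -0.35 (SE 0.36) for *mir-9-3p* and -0.43 (SE 0.54) for *mir-9-5p*. The value of *mir-124-3p* pools organs of opposite direction. It was higher in SHR in brain and in spleen, at a ratio of 2.93 (1.24 to 7.47) in spleen, lower in heart at 0.11 (0.060 to 0.19), in testis at 0.28 (0.18 to 0.43) and in kidney at 0.29 (0.17 to 0.46), and had a ratio of 1.38 (0.82 to 2.33) in liver.

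Liver is the organ with 3 libraries per strain. None of the 4 arms had enough reads for the expression filter of the edgeR test, which called 0% of the 250 arms tested (6 at an unadjusted p under 0.05, and 0 called by DESeq2). Without the filter, the log2 fold change of SHR over BN-Lx was 0.03 (SE 1.25) for *mir-124-3p*, -1.96 (SE 1.82) for *mir-124-5p*, -1.29 (SE 1.23) for *mir-9-3p* and -1.65 (SE 1.22) for *mir-9-5p*, with adjusted p of 0.92 or more. The replicate number was also used as a block, which treats same-numbered livers as pairs, though the labels state no pairing. With it the log2 fold change was -1.23 (SE 0.84) for *mir-124-3p*, -0.95 (SE 1.93) for *mir-124-5p*, -1.20 (SE 1.12) for *mir-9-3p* and -1.40 (SE 0.71) for *mir-9-5p*. Adjusted p in this edgeR fit was 0.83 for *mir-9-5p* and 0.93 for the other 3. In RPM, both *mir-9* arms were lower in SHR at each of the 3 replicate numbers, but the share of all arms lower in this way was not computed. In BN-Lx and SHR liver, *mir-9-5p* had 34.2 and 11.97 RPM at number 1, 2.19 and 0.98 at number 2 and 2.57 and 0.62 at number 3. For *mir-9-3p* these were 8.55 and 3.99, 1.46 and 0.98, and 3.43 and 0.62. With 2 to 16 reads behind each of these values, the fits detected no strain difference in liver for the 4 arms.

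Other miRNAs with a known place in the brain, a list of *mir-128*, *mir-129*, *mir-132*, *mir-137*, *mir-138*, *mir-153*, *mir-212* and *mir-218* for neurons and of *mir-219* and *mir-338* for oligodendrocytes, were read beside the 4 arms. Of the neuronal list 15 of 15 tested arms were higher in brain, with a median log2 fold change of 6.38, and of the oligodendrocyte list 4 of 4, with a median of 5.82. *mir-137-5p* and *mir-153-5p* had 0 reads outside brain in the six-tissue set, and *mir-137-3p*, *mir-153-3p* and *mir-129-5p* at most 1 read per library. These arms entered the test only through the brains, so their direction was fixed by the expression filter, and they also enter the list median. Of all 415 tested arms 41% were called higher, and the median over all arms was 0.65. *mir-124-3p* therefore lay above the medians of both lists and *mir-9-5p* below that of the neuronal list. In the ratio of the brains, the 16 neuronal arms, including *mir-212-5p*, which missed the expression filter of the test, had a median of 1.05. The lowest ratio was 0.053 for *mir-212-5p*, with 165 and 7 reads in the BN-Lx and SHR brains, and the highest 2.73 for *mir-218-3p*, with 18 and 39 reads. These were the arms of the list past 2-fold. The other 14 began at 0.57 for *mir-129-5p*, and *mir-129-3p*, with 9020 and 12600 reads, had the highest of them, 1.76. Set against a ratio of 1, *mir-129* thus resembled *mir-124* in having a higher 3p and a lower 5p arm in SHR brain. Its 3p ratio was smaller, and this arm pair was picked out after its values were seen. The median ratio over all arms was 0.86, and *mir-124-5p* stood at 0.94 of it, so that arm was hardly lower than the median arm.

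Markers of blood and of vessels were lower in brain or did not pass the test. All 5 tested arms of *mir-126*, *mir-143* and *mir-145*, miRNAs of endothelium and smooth muscle, were lower in brain, as were 4 of 7 arms of the blood list (*mir-451*, *mir-144*, *mir-142* and *mir-223*), with medians of -2.38 and -1.86, beside 19.8% of all arms called lower. Both arms of *mir-122*, the liver miRNA, were lower, and 2 of 3 arms of *mir-375* and *mir-7a*, miRNAs of neuroendocrine cells, were higher, beside 41% of all arms. Blood arms had a median SHR to BN-Lx ratio in brain of 1.71 and endothelial and smooth muscle arms of 1.25, on the same side of 1 as *mir-124-3p*, and their part in its ratio was not tested.

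The pattern of each arm over the 12 libraries was compared with those of the 411 tested arms outside the 2 families, and with the other 3 arms, by Pearson's r on log2 CPM, TMM-scaled counts per 1000000, as a description, since all the points share brain as the high end. Among arms of other families, most like *mir-124-3p* were *mir-323-3p* (r = 0.96), *mir-129-3p* (r = 0.95) and *mir-132-5p* (r = 0.94), and most like *mir-124-5p* were *mir-323-3p* (r = 0.98), *mir-434-3p* (r = 0.97) and *mir-132-5p* (r = 0.96). The 2 arms of *mir-124* had r = 0.97 with each other, higher for *mir-124-3p* than any arm outside the families. Outside the families, closest to *mir-9-3p* were *mir-219-3p* (r = 0.98), mmu-*mir-764-5p* (r = 0.97) and *mir-410-3p* (r = 0.97). Those outside the families closest to *mir-9-5p* were *mir-383-5p*, *mir-551b-3p* and *mir-219-3p* (each r = 0.94 or 0.95). The choice depended on the measure. By Spearman's rho with *mir-9-5p* these arms ranked 76th (0.47), 13th (0.66) and 23rd (0.65) of the 411. The arms named beside the other 3 ranked from 2nd to 18th by rho. The arms of *mir-9* had r = 0.95 with each other. *mir-9-5p* was closer to *mir-124-5p* (r = 0.97) than to its own partner or to any arm outside the families, and *mir-9-3p* had r = 0.95 with *mir-124-5p*.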

How the data were processed

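For each of the 16 libraries the authors deposited estimated counts, the reads at each start and end position on a hairpin, which are no whole numbers where a read fits several hairpins, since it was divided evenly between them. Per the study's methods, total RNA (mirVana) was fractionated to 15 to 40 nt, made into libraries with the Ambion SREK kit and sequenced on SOLiD, and trimmed reads were mapped with SHRiMP to hairpins of miRBase 12 and of the miRIntess pipeline on RGSC3.4. Only perfect matches were kept, so an edited or variant read is not counted, and nothing was normalized. Files of the further livers also hold reads of 15 and 16 nt, at most 0.278% of a library.

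Reads were summed per arm and over paralogues (653 arms). Where midpoints spanned over 25 nt the arms were split at the widest gap. Sums were rounded for edgeR 4.0.16 (TMM, filterByExpr, quasi-likelihood, two-sided, Benjamini-Hochberg at 0.05) in R 4.3.3, and DESeq2 1.42.0 was an alternative. Fits were tested on simulated data. Strain ratios, arm shares, first bases and likeness (prior count 2) have no test. Nothing says how the libraries of a group relate beyond rat and organ, so p-values measure the spread between these libraries.

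The livers carry replicate numbers 1 to 3 in either strain. Deviations from the strain means correlated between same-numbered livers at 0.65, 0.57 and 0.31 (Pearson, 250 arms). Livers of different numbers were not correlated, and number 1 marks the six-tissue set in either strain. These values therefore cannot tell pairs from a difference between the sets. The numbers were used as a block in an alternative fit, though the labels state no pairing.

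The 4 arms are named in every library, with the 3 arms of other families most like each, the arms of the brain lists and the arm with most reads in brain. Members and lists were chosen with earlier results of these data known. Alternatives were another tool, scaling, filter, read length or fold, hairpins on their own and each library left out. Tables were handled in Python 3.11.15 with pandas 2.3.3, scipy 1.17.1 and numpy 2.4.6.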

Additional observations from a re-analysis of the deposited data

Results flagged for a closer look

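The ratio of SHR to BN-Lx for *mir-124-3p* was above 1 in brain (2.92) and below 1 in heart (0.109, from 93 and 16 reads), in testis (0.280, from 96 and 30 reads) and in kidney (0.287, from 73 and 25 reads). These were noted because the strains differed in opposite directions in 2 organs with at least 10 reads in every library. With 1 library per organ and strain the difference between the organs was not tested. For *mir-9-3p* the ratio was 0.735 in brain and 1.12 in kidney, where 18 and 24 reads leave an interval of 0.58 to 2.19 that includes 1.

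Reads on the opposite strand of the *mir-9* hairpins belong to none of the 4 arms. There were 5 such reads in BN-Lx brain, above the limit that a count of 0 allows, 1 in SHR liver 2 and none in the other 14 libraries.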

How the results depend on the processing

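In 548 of 548 values refitted for the brain comparisons and 88 of 88 for the strain comparison over 6 tissues, the 4 arms kept their direction and their side of the threshold. Without BN-Lx brain, 54 arms were lower in brain instead of 82 (54 to 86 with any library left out). In these refits a tissue left with 1 library is assumed to vary like the others.

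The ratio of the brains was 3.23, 3.26 and 2.87 for *mir-124-3p* with TMM, RLE and total reads, and with TMM and RLE it was 0.893 and 0.900 for *mir-124-5p*, 0.542 and 0.546 for *mir-9-5p* and 0.812 and 0.819 for *mir-9-3p*. At 1.5-fold 40 arms were higher and 114 lower, and with at least 100 reads 7 and 23. The minimum ratio of brain to the next tissue for *mir-124-3p*, 5.47, misses a 10-fold rule. Counting reads of at least 20 nt, the 5p share of *mir-124* was 15.3% and 4.36% in BN-Lx and SHR brain and the main start of *mir-124-3p* held 95.1% and 96.0%. The main start of *mir-9-3p* held 80.6% and 76.6% on *mir-9-1* and on *mir-9-2*, and 62.8% and 57.5% on *mir-9-3*, which shares only the reads that end before base 23.

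In liver, 0 arms were called with the replicate block (19 at an unadjusted p under 0.05). Without the filter, settings chosen after seeing the data, 7 arms were called in the 4 further livers alone and 2 with the library set as a term, none of them among the 4 arms. There *mir-124-3p* changed sign, to -1.23 with the replicate block, -2.44 in the further livers and -1.24 with the set as a term, and *mir-124-5p* to 1.95 in the further livers; the cause was not tested. Arms named in the files could not be used, as the files name none, so that alternative was not run. With 1 to 24 reads outside brain for 3 of the arms, depth limits what can be said of those organs.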
